A study of Mus musculus with 14 samples.

Results

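The genotype effects of 2 bone marrow lymphocyte populations were compared gene by gene. The question was whether loss of Il15 from blood cells changed immature natural killer cells (iNK) and immature type 1 innate lymphoid cells (iILC1) alike. For each gene, the difference between conditional knockout (cKO) and control was taken in each population, and the effect in iNK was subtracted from the effect in iILC1 (the interaction). All 14 libraries of the series entered the test, and 26990 of 46078 listed genes passed the filter on low counts.

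All mice were C57BL/6 and 8 weeks old. Control mice had the genotype Il-15-flox/KO, so they carried 1 floxed and 1 knockout Il15 allele, and cKO mice had the genotype Vav-Cre;Il-15-flox/KO. The knockout allele was thus common to every group. Vav-Cre recombines in the blood lineage, from its stem cells onward, so stromal and other cells outside it keep the floxed allele. Each cell type had 3 control and 4 cKO libraries, and each library came from 2000 sorted cells. The iNK gate took cells lacking CD3, CD11b and IL-7Ra that carried NK1.1, CD27 and DX5. The iILC1 gate took cells positive for NK1.1, IL-7Ra and CD49a and lacking CD3. Nothing in the labels says that replicates came from separate mice, so p-values reflect the spread between the libraries at hand, which may be technical.

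NK cells and type 1 innate lymphoid cells are related lymphocytes without rearranged antigen receptors. NK cells depend on interleukin 15 (IL-15) for survival, division and the filling of their cytotoxic granules. The cytokine is usually presented by a neighbouring cell that carries it on IL-15Ra, and it signals through IL-2Rb, the common gamma chain, JAK kinases and STAT5. Major histocompatibility complex (MHC) class II molecules present peptides to CD4 T cells and are best known from B cells, dendritic cells and macrophages.

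Library totals were 3512796 to 12572326 counts, and control iILC1 was the shallowest group at 3512796 to 4933284. Levels are given as TMM-normalised CPM, which scales each library's counts to a common total. The labels were compared with defining transcripts. Il7r, which encodes IL-7Ra, lay between 6.71 and 27.0 CPM in the iNK libraries and between 351 and 718 CPM in the iILC1 libraries. Eomes, a transcription factor of NK cells, lay between 486 and 932 CPM in iNK and between 74.0 and 147 CPM in iILC1. Ncr1, the NKp46 receptor of both populations, lay between 646 and 3106 CPM. Cd3e, excluded at the protein level by both gates, lay between 1.11 and 6.79 CPM in iNK and between 22 and 79.3 CPM in iILC1. Il15 itself lay between 8.16 and 25.0 CPM, with an interaction of 0.37 (log2, SE 0.40, adjusted p = 0.802). A count over the whole gene cannot separate the floxed exons from the rest, so it is no check of the deletion or of the labels.

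Genotype effects differed between iNK and iILC1 in a small set of genes, among them 5 listed markers of B and plasma cells and 3 listed genes of MHC class II presentation. edgeR's quasi-likelihood test called 21 genes for the interaction (0.0778% of genes tested). In 15 of them (0.0556%) the interaction was negative, so the effect was lower in iILC1, and in the other 6 (0.0222%) it was positive. At an unadjusted p under 0.05 there were 1863 genes (6.9%). All 15 genes with a negative interaction rose in cKO iNK, and 3 of them, Cd74, H2-Aa and H2-Ab1, rose in cKO iILC1 as well, by a smaller fold change. Of the 6 genes with a positive interaction, 5 fell in cKO iNK without a call in iILC1, and Psd2 rose in cKO iILC1 without a call in iNK. The estimates in the 2 cell types had opposite signs in 16 of the 21 genes and 1 sign in 5. Over all genes tested they had 1 sign in 42.9%, and choosing genes by the interaction itself favours opposite signs. The calls depended on single libraries: leaving out 1 library gave 9 to 31 genes, the lowest without control iILC1 replicate 3.

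Within single cell types, 110 genes (0.408%) were called in iNK, of which 40 (0.148%) rose and 70 (0.259%) fell. In iILC1 13 genes (0.0482%) were called, 6 rising (0.0222%) and 7 falling (0.0259%). The smaller count in iILC1 is not itself a test of a difference. Of the 110 genes called in iNK, 20 were also called for the interaction and 90 were not. Of those 90, the 95% interval of the interaction lay within ±1 (log2) in 5 and excluded 0 in 59, without adjustment for the number of genes. The estimate in iNK is a term of the interaction, so choosing genes by a call in iNK itself favours intervals away from 0.

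**Figure D1:**
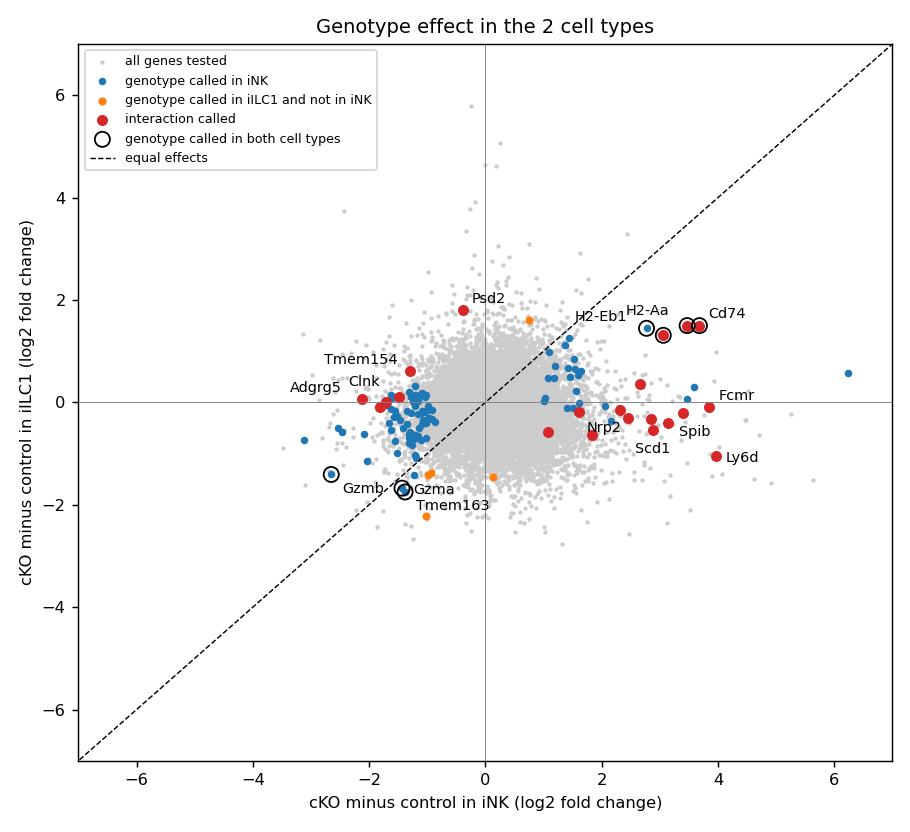
Log2 fold change of cKO over control in iNK (x axis) and in iILC1 (y axis) for the 26990 genes tested, with equal effects on the dashed line. The 21 genes called for the interaction (red) lie far from that line, mostly along the x axis, and the 7 genes called in both cell types (circled) lie in the upper right and lower left.

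Of 22 listed markers of B and plasma cells, 10 rose in cKO iNK, against 0.148% of all genes tested, and none fell there. None of the 22 was called in iILC1. Ly6d, a surface protein of the B lineage (ENSMUSG00000034634, mm10 chromosome 15, 74762056 to 74763620, minus strand), stood at 1.09, 1.47 and 0.960 CPM in control iNK and at 16.2, 12.9, 18.5 and 26.7 CPM in cKO iNK. Its iILC1 levels were 3.80, 2.19 and 1.83 CPM in control and at 1.45, 0.612, 2.55 and 0.381 CPM in cKO. The cKO iNK libraries were all above every other library, and 3 of the 4 cKO iILC1 libraries lay below the range of control iILC1. The log2 fold change of Ly6d was 3.97 (SE 0.49) in iNK and −1.05 (SE 0.50, adjusted p = 0.982) in iILC1. Its interaction of −5.02 (SE 0.70, 95% interval −6.44 to −3.60, adjusted p = 0.00057) was the most negative among the called genes. Outside cKO iNK, Ly6d did not exceed 3.80 CPM, so few reads set the size of this estimate.

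Cd79b, Spib and Fcmr, of the same list, had negative interactions as well. Cd79b, which encodes Igβ of the B cell receptor complex, averaged 7.5 ± 1.73 CPM in control iNK (SD, n = 3) and 47.5 ± 4.52 CPM in cKO iNK (SD, n = 4), against 8.44 ± 3.07 and 10.7 ± 2.72 CPM in control and cKO iILC1. Spib, an ETS factor of B cells and plasmacytoid dendritic cells, had an interaction of −3.55 (SE 0.59, adjusted p = 0.00452). Fcmr, the Fc receptor for IgM, stood at 1.56, 0.982 and 1.44 CPM in control iNK and at 18.2, 14.1, 25.7 and 19.5 CPM in cKO iNK, while no iILC1 library exceeded 3.15 CPM, and had an interaction of −3.94 (SE 0.70, adjusted p = 0.00979). Siglecg, Fcer2a and Irf4, also called with a negative interaction, are on no list used here, like several other called genes. They were placed here with their values known and are not counted as listed markers. Siglecg, a lectin known as inhibitory in B cells, had an interaction of −2.76 (SE 0.51, adjusted p = 0.0137). Fcer2a, the low-affinity IgE receptor, and Irf4, a factor of plasma cells and other lymphocytes, were nearest the threshold, both at an adjusted p of 0.0458. Each of these genes had no overlap between control and cKO libraries in iNK, as did 8.84% of all genes tested. Fcer2a and Irf4 lost the call in 18 and 16 of 26 alternatives and Siglecg in 3. Fcmr lost it without control iILC1 replicates 1 or 2 and Cd79b without control iILC1 replicate 3, whereas Ly6d and Spib kept it in all 25 that tested them.

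Most listed B cell markers leaned the same way. The interaction estimate was positive in 1 of the 22 and the estimate in iNK was lower in cKO in 1. Of the 22, 5 were called with a negative interaction (among them Ly6d, Cd79b, Spib and Fcmr), against 0.0556% of all genes tested. None was called with a positive one. The median interaction was −1.72 against −0.03 over all genes tested. Cd79a, the partner of Cd79b, missed the threshold for the interaction at −3.28 (SE 0.77, adjusted p = 0.24), as did Ms4a1, which encodes CD20, at −1.61 (SE 0.37, adjusted p = 0.142). Ighm, the IgM heavy chain, was the marker with the positive estimate and lay between 260 and 773 CPM across all libraries with an interaction of 0.05 (SE 0.36, adjusted p = 0.979). The summed level of the 22 markers was 499 to 702 CPM in control iNK, 886 to 1380 CPM in cKO iNK, 465 to 582 CPM in control iILC1 and 511 to 766 CPM in cKO iILC1. None of the 22 was at 0 in all libraries. Whether cells of the B lineage in the sorted fraction had a part in these results was not tested, and in bulk samples a change in the number of cells of a type and a change in RNA per cell cannot be told apart.

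Scd1, Nrp2, Id3 and Slc37a2 were the other 4 called genes with a negative interaction outside MHC class II. Scd1, the stearoyl-CoA desaturase that makes monounsaturated fatty acids, stood at 1.87, 2.13 and 1.92 CPM in control iNK and at 15.9, 13.4, 20.7 and 9.11 CPM in cKO iNK. In iILC1 it stood at 5.85, 5.17 and 5.68 CPM in control and at 3.39, 2.45, 4.14 and 5.34 CPM in cKO. Only the cKO iNK libraries exceeded 6 CPM, and the interaction was −3.43 (SE 0.53, adjusted p = 0.00218). Nrp2, a coreceptor for semaphorins and vascular growth factors, rose from 19.3 ± 1.12 to 58.9 ± 10.4 CPM in iNK and stood at 16.6 ± 2.70 and 14.6 ± 1.92 CPM in control and cKO iILC1, an interaction of −1.80 (SE 0.32, adjusted p = 0.00869). Id3, an inhibitor of E proteins, had an interaction of −2.46 (SE 0.50, adjusted p = 0.0375). Slc37a2, a sugar phosphate exchanger of the endoplasmic reticulum, stood at 55.3, 55.0 and 38.2 CPM in control iNK and at 102, 86.1, 116 and 112 CPM in cKO iNK, but at 30.4, 31.4 and 28.4 CPM in control iILC1 and at 13.0, 17.1, 25.8 and 25.2 CPM in cKO iILC1. Its groups did not overlap in either cell type and lay in opposite order, as in 0.148% of all genes tested. The interaction of Slc37a2 was −1.64 (SE 0.33, adjusted p = 0.0326). The genotype effect on Slc37a2 was called in iNK and not in iILC1 (−0.57, SE 0.23, adjusted p = 0.982). The interaction of Id3 lost its call in 9 of 26 alternatives and that of Slc37a2 in 10, RLE scaling among them, while Nrp2 lost it without control iILC1 replicate 3.

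**Figure D2:**
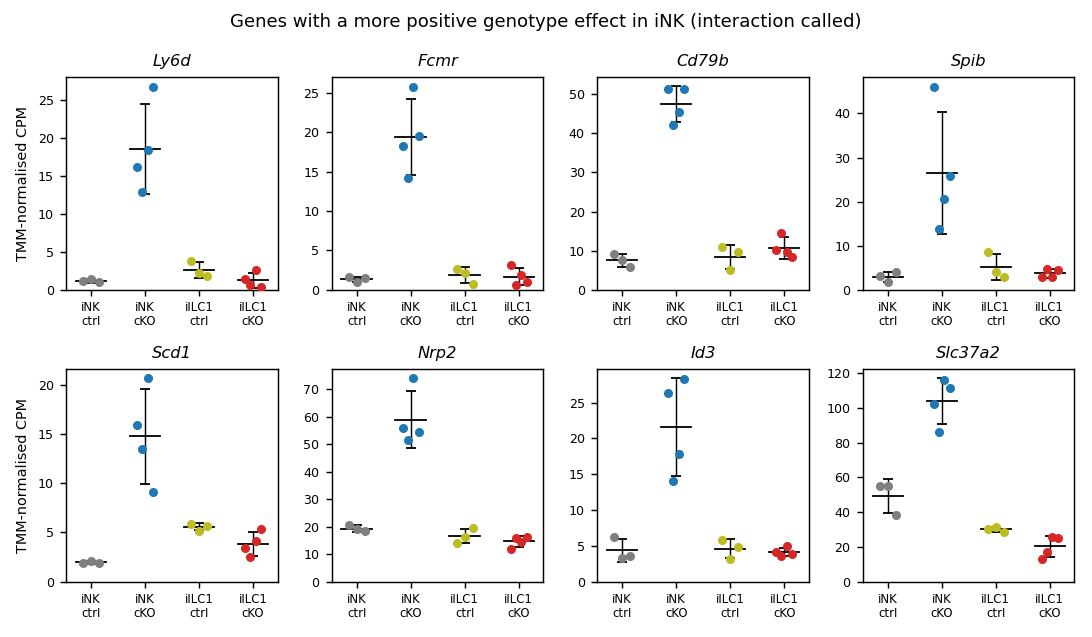
TMM-normalised CPM of 8 genes called for the interaction with a larger rise in iNK, by group, where each point is 1 library, the horizontal line the group mean and the error bar 1 SD (n = 3 for control, n = 4 for cKO). In each panel all 4 cKO iNK libraries lie above all 10 other libraries.

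Of 11 listed MHC class II genes, 6 rose in cKO iNK and 4 in cKO iILC1, against 0.148% and 0.0222% of all genes tested. In 3 of them the fold change was larger in iNK by the interaction test. That test compares log2 fold changes and not differences in CPM. Cd74, the invariant chain that escorts class II molecules, stood at 13.0, 18 and 11.7 CPM in control iNK and at 192, 144, 189 and 205 CPM in cKO iNK. Among iILC1 libraries it was at 154, 114 and 79.1 CPM in control and at 372, 342, 348 and 243 CPM in cKO. No control library overlapped a cKO library of its cell type, and control iILC1 lay well above control iNK. A smaller fold change in iILC1 is therefore not a smaller rise in CPM. The log2 fold change was 3.68 (SE 0.28, adjusted p = 7.28e-10) in iNK and 1.5 (SE 0.24, adjusted p = 0.00462) in iILC1, an interaction of −2.18 (SE 0.34, 95% interval −2.88 to −1.48, adjusted p = 0.00261). H2-Aa, the alpha chain of I-A, had log2 fold changes of 3.47 (SE 0.30) and 1.5 (SE 0.26) and an interaction of −1.97 (SE 0.38, adjusted p = 0.028). H2-Ab1, the beta chain of I-A, had log2 fold changes of 3.06 (SE 0.27) and 1.31 (SE 0.24) and an interaction of −1.75 (SE 0.35, adjusted p = 0.0346). H2-Eb1, the beta chain of I-E, stood at 5.15, 5.08 and 5.76 CPM in control iNK and at 41.6, 30.2, 38.9 and 35.3 CPM in cKO iNK, with 29.5, 21.1 and 13.9 CPM in control iILC1 and 65.9, 54.2, 66.0 and 46.1 CPM in cKO iILC1. H2-Eb1 was called in both cell types and missed the threshold for the interaction (−1.32, SE 0.35, adjusted p = 0.326). Without control iILC1 replicate 3, no effect of these genes in iILC1 was called, with an adjusted p of 0.344 for Cd74 and 0.429 for H2-Aa. The interaction of H2-Aa and H2-Ab1 was lost in 7 of 25 alternatives each, and that of Cd74 in none.

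The rest of the class II list was mixed. Of its 11 members, 3 were called with a negative interaction, against 0.0556% of all genes tested, and none with a positive one. In both cell types 10 of the 11 had a higher estimate in cKO, against 24.8% of all genes tested. Ciita, the master regulator of class II transcription, had an interaction of −0.35 (SE 0.39, adjusted p = 0.805) and was called in neither cell type. H2-DMa, a peptide exchange factor, had an interaction of 0.82 (SE 0.30, adjusted p = 0.709), opposite in sign to that of Cd74. The summed level of the list was 213 to 268 CPM in control iNK, 474 to 673 CPM in cKO iNK, 265 to 404 CPM in control iILC1 and 584 to 865 CPM in cKO iILC1. Summed dendritic cell markers overlapped between genotypes in both cell types, at 742 to 1190 and 799 to 1130 CPM in control and cKO iNK and 529 to 672 and 510 to 709 CPM in control and cKO iILC1. The part of dendritic or B lineage cells in the class II values was not tested.

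Promoters of the class II genes are shown because H2-Aa was called for the interaction and its neighbour H2-Eb1 was not. The sequences are from RefSeq (GRCm38.p6), 300 bases reaching from 250 bases before the gene start to 50 after, written 5′ to 3′ on the gene's strand. Capitals mark CCAAT or its reverse complement ATTGG, the Y box sequence of class II promoters bound by NF-Y. H2-Aa lies at chr17:34287774-34288073 (minus strand) and H2-Eb1 at chr17:34305617-34305916 (plus strand).
H2-Aa: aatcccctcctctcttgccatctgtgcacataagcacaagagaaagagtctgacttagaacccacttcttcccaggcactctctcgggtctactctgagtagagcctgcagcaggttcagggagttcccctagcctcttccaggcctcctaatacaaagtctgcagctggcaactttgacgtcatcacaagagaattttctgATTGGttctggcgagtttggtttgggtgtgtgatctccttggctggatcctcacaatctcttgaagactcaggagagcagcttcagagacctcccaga
H2-Eb1: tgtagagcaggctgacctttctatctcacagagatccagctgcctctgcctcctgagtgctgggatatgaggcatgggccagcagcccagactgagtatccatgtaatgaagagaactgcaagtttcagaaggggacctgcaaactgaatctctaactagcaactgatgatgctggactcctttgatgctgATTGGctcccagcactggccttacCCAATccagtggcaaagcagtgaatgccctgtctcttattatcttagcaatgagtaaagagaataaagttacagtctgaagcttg
H2-Aa held 1 match, starting 48 bases before the gene start, and H2-Eb1 held 2, starting 59 and 35 bases before it. Over all 27025 promoters in the reference, 37.9% held the motif on either strand. Of the 19 genes called for the interaction that are neither predicted genes nor receptor segments, 12 had a promoter entry, and 3 of these held the motif (Spib, H2-Aa and Fcer2a). Of the 7 genes called in both cell types, 5 had an entry and 4 held it (H2-Aa, H2-Eb1, Gzma and Tmem163). The core of the EBF1 motif, CCCNNGGG, was in 1 of the 12 (Spib), against 13.4% of all promoters. Matches are letters in these windows and no measure of binding.

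Genes with a positive interaction mostly fell in cKO iNK, with no call in iILC1. Adgrg5, an adhesion G protein-coupled receptor (chromosome 8, 94923694 to 94943290, plus strand), stood at 98.6, 93.3 and 111 CPM in control iNK and at 30.4, 24.5, 20.4 and 17.5 CPM in cKO iNK. Its iILC1 levels were 268, 206 and 258 CPM in control and at 346, 222, 205 and 252 CPM in cKO. The groups were apart in iNK and overlapped in iILC1, and the interaction was 2.2 (SE 0.32, 95% interval 1.54 to 2.86, adjusted p = 0.00126). Clnk, an adaptor of the SLP-76 family, stood at 62.5, 65.0 and 49.7 CPM in control iNK and at 22.5, 17.6, 25.1 and 19.0 CPM in cKO iNK, with 61.6 to 105 CPM over all iILC1 libraries. Its interaction was 1.6 (SE 0.30, adjusted p = 0.0174). Adgrg5 was called in all 26 alternatives, and Clnk lost the call in 3 that each left out 1 library.

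Psd2 differed from that shape, and Tmem154 kept it by call although its iILC1 libraries lay apart by genotype. Tmem154, which encodes a transmembrane protein, fell in iNK from 53.4, 46.7 and 44.5 CPM to 17.7, 17.1, 16.1 and 27.4 CPM. In iILC1 it stood at 85.1, 76.1 and 61.7 CPM in control and at 151, 106, 88.0 and 106 CPM in cKO. The groups thus lay apart in both cell types and in opposite order, as in 0.148% of all genes tested. The interaction was 1.90 (SE 0.32, adjusted p = 0.00608), while the effect in iILC1 alone was not called (0.61, SE 0.23, adjusted p = 0.982). Psd2, an exchange factor for ARF GTPases, stood at 36.3, 34.6 and 33.5 CPM in control iILC1 and at 162, 116, 107 and 103 CPM in cKO iILC1, and lay between 1.82 and 5.97 CPM in iNK. Its log2 fold change was 1.81 in iILC1 (SE 0.26, adjusted p = 0.00104) and −0.39 in iNK (SE 0.31, adjusted p = 0.796), an interaction of 2.2 (SE 0.40, adjusted p = 0.0109). The other two called genes are the predicted gene Gm49339 (1.71, adjusted p = 0.03) and the antigen receptor segment Trdv4 (1.71, adjusted p = 0.0375), named here after their values were seen. They lost the call in 9 and 10 of 26 alternatives, Psd2 in 2 (without control iNK replicate 2 or control iILC1 replicate 3) and Tmem154 without control iILC1 replicate 3. All 6 genes had a higher mean in iILC1 than in iNK in both genotypes. Of the 15 genes with a negative interaction, 13 had a higher mean in iILC1 in control and 3 in cKO. Gpc1, which encodes a heparan sulphate proteoglycan, was next by p and missed the threshold (1.69, SE 0.37, adjusted p = 0.0907). It was uncalled in 15 of 26 alternatives and called in the rest, DESeq2 and voom among them.

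**Figure D3:**
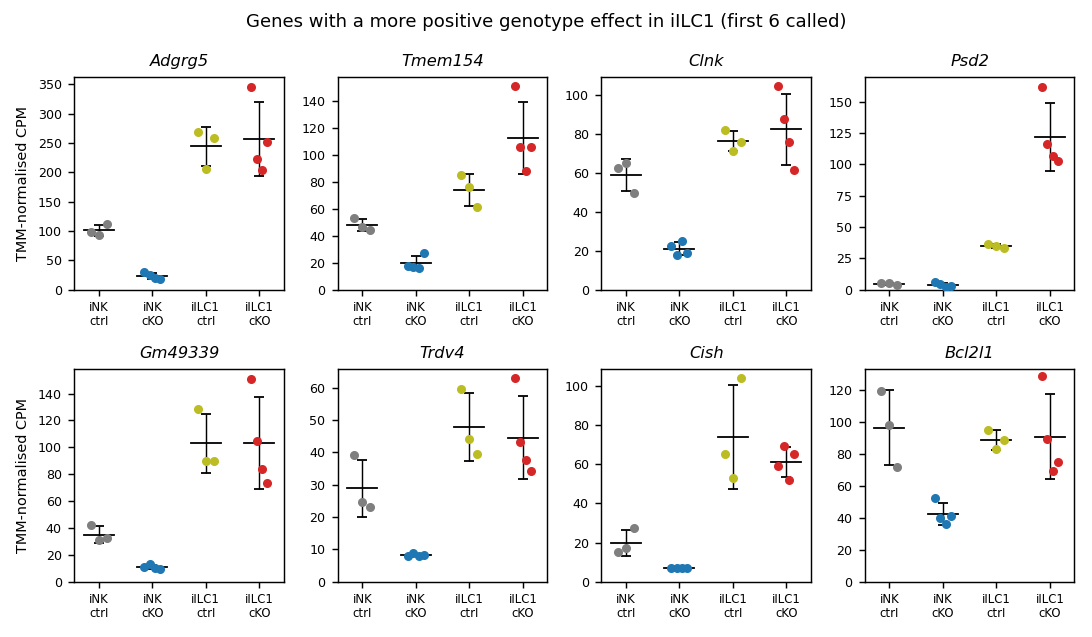
TMM-normalised CPM by group for the 6 genes called with a positive interaction and for Cish and Bcl2l1, whose interaction was not called, where each point is 1 library, the horizontal line the group mean and the error bar 1 SD (n = 3 for control, n = 4 for cKO). In iNK the control and cKO libraries are apart in every panel except that of Psd2, and in iILC1 they are apart for Tmem154 and Psd2.

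In the list of IL-2, IL-15 and STAT5 response genes, 5 of 20 fell and none rose in cKO iNK, and 1 fell in cKO iILC1 (Gzmb). Over all genes tested, 0.259% fell in iNK and 0.0259% in iILC1. None of the 20 was called for the interaction. Its estimate was positive in 19 of 20, with a median of 0.73. Cish, a feedback inhibitor induced by STAT5, stood at 15, 17.2 and 27.2 CPM in control iNK and at 6.73, 6.79, 6.76 and 7.15 CPM in cKO iNK. Among iILC1 libraries it was at 65.5, 53.1 and 104 CPM in control and at 59.0, 69.4, 51.9 and 65.2 CPM in cKO. The genotypes were apart in iNK and overlapped in iILC1, yet the interaction missed the threshold at 1.25 (SE 0.34, 95% interval 0.55 to 1.95, adjusted p = 0.386). Bcl2l1, the gene of the anti-apoptotic BCL-XL, likewise fell in iNK (−1.19, SE 0.23, adjusted p = 0.00565), with an interaction of 1.22 (SE 0.32, adjusted p = 0.326). Bcl2 was called in neither cell type, at −0.94 (SE 0.24, adjusted p = 0.0799) in iNK and −0.45 (SE 0.24, adjusted p = 0.982) in iILC1. In the receptor and kinase list none of 16 members was called in either cell type or for the interaction, and Il2rb had an interaction of 0.50 (SE 0.38, adjusted p = 0.741).

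The promoters of Clnk and Cish are shown because they hold TTCNNNGAA, the GAS sequence recognised by STAT factors, which is in 8.47% of all promoters in the reference. Capitals mark the matches. Clnk lies at chr5:38876644-38876943 (minus strand) and Cish at chr9:107296409-107296708 (plus strand).
Clnk: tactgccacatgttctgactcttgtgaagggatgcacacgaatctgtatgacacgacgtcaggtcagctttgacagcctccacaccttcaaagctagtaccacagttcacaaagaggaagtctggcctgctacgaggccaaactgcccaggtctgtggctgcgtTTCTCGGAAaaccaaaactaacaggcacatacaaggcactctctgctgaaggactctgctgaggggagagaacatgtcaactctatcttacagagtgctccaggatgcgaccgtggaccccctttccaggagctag
Cish: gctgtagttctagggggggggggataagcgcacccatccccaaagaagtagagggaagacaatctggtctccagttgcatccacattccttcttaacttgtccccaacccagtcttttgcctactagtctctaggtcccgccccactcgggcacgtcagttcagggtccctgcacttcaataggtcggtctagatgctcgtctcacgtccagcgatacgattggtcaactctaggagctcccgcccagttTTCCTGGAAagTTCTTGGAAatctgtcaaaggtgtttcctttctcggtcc
Clnk held 1 match, starting 86 bases before the gene start, and was the only 1 of the 12 interaction genes with a promoter entry that held any. Cish held 2, starting 0 and 11 bases after the gene start. Of the 5 genes called in both cell types with an entry, Gzmb held the motif.

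Effects shared by both cell types were few at this threshold. The 2 genotype comparisons have no library in common, and 7 genes (0.0259%) were called in both in the same direction, 4 rising (0.0148%) and 3 falling (0.0111%). None was called in opposite directions. The rising genes were the class II genes H2-Aa, H2-Ab1 and H2-Eb1 with Cd74, and the falling ones Gzma, Gzmb and Tmem163. Without control iILC1 replicate 3 there were 2, and without cKO iILC1 replicate 1 there were 11. Over all genes tested, the genotypes were free of overlap for 8.84% in iNK and for 5.48% in iILC1. They were free of it in both for 0.496% in the same direction and for 0.148% in opposite directions.

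The shared fall was clearest in the granzymes. Gzma, which encodes granzyme A, stood at 2063, 1595 and 1416 CPM in control iNK and at 606, 535, 601 and 761 CPM in cKO iNK. Its iILC1 levels were 254, 212 and 161 CPM in control and at 87.1, 59.6, 56.5 and 58.1 CPM in cKO. The fold changes were of like size on different levels, at −1.43 (SE 0.24) and −1.68 (SE 0.24), and the interaction was −0.24 with a 95% interval of −0.94 to 0.45. Gzmb, which encodes granzyme B, stood at 133, 156 and 116 CPM in control iNK and at 24.6, 15, 18.7 and 27.6 CPM in cKO iNK. In iILC1 it stood at 48.6, 39.4 and 64.8 CPM in control and at 17.0, 15.6, 24 and 20.5 CPM in cKO. The 2 cKO groups overlapped in level, whereas the 2 control groups did not. The log2 fold changes of Gzmb were −2.65 (SE 0.23) and −1.41 (SE 0.23), and the interaction of 1.24 (SE 0.33, 95% interval 0.57 to 1.92) was not called at an adjusted p of 0.339. Without control iILC1 replicate 3 the fall of Gzmb in iILC1 was not called (−1.19, adjusted p = 0.359). Tmem163, a zinc transporter, had log2 fold changes of −1.38 (SE 0.25) and −1.75 (SE 0.27), with an interval of the interaction of −1.13 to 0.39. Of 18 cytotoxic granule genes, 2 fell in each cell type, against 0.259% of all genes tested in iNK and 0.0259% in iILC1. The rest of the 18 were not called.

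**Figure D4:**
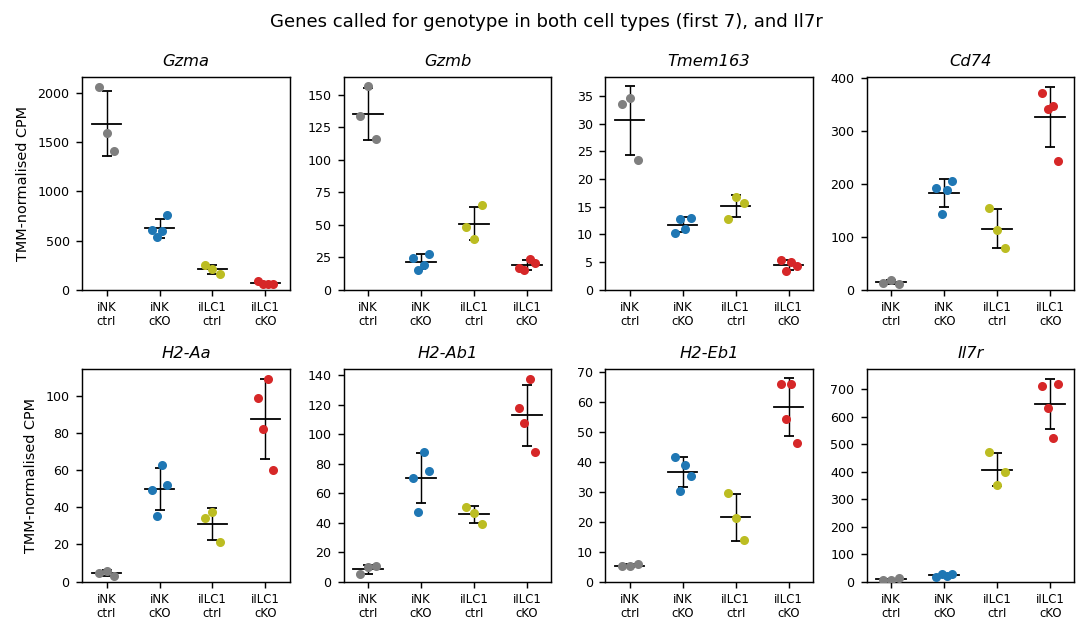
TMM-normalised CPM by group for the 7 genes called for genotype in both cell types and for Il7r, where each point is 1 library, the horizontal line the group mean and the error bar 1 SD (n = 3 for control, n = 4 for cKO). Control and cKO libraries do not overlap within either cell type in any panel.

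The mean of the 2 genotype effects, tested with all libraries, was called for 114 genes (0.422%), of which 51 rose (0.189%) and 63 fell (0.233%). Of these, 44 were called in neither cell type alone. The 2 estimates had 1 sign in 103 of the 114, against 42.9% of all genes tested, and the mean effect itself favours such genes. In 98 of the 103 the interaction was not called. The 95% interval of the interaction lay within ±1 (log2) in 25 of those 98 and excluded 0 in 26, so a missed threshold does not show that the effects were alike.

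Among the genes of smallest p in the mean effect, chosen for 1 sign and genotypes apart in both cell types, Adgrl4 and Jaml had nearly equal effects. That choice itself favours like effects. Adgrl4, an adhesion receptor, rose by 1.09 (SE 0.24) in iNK and stood at 0.99 (SE 0.24, adjusted p = 0.222) in iILC1, with an interval of the interaction of −0.78 to 0.57. Jaml, a junctional adhesion molecule of leukocytes, fell by 1.20 in iNK and stood at −1.09 (SE 0.24, adjusted p = 0.0935) in iILC1, with an interval of −0.59 to 0.81. Pter and Apol7b were higher in cKO by 1.35 and 1.24 in the mean effect (adjusted p = 0.000358 and 0.000469), and Sdc4, a heparan sulphate proteoglycan, by 1.33 (adjusted p = 0.00103). Slc7a5, a large neutral amino acid transporter, fell by 1.26 in the mean effect (adjusted p = 9.53e-05), and Paqr4 fell by 1.59 (adjusted p = 0.000203). The interaction was 0.53 for Slc7a5 and, across alternatives, 0.71 to 1.27 for Paqr4, and was called for neither. For Pter, Apol7b and Sdc4 it was −0.17, −0.25 and 0.25 and was not called. Itgam, which encodes CD11b of the iNK gate, had log2 fold changes of −0.99 (SE 0.24, adjusted p = 0.0646) and −1.41 (SE 0.25, adjusted p = 0.00898), the latter not called without control iILC1 replicate 1 (adjusted p = 0.198). Il7r, which encodes a protein of both gates, rose in iNK by 1.42 (SE 0.27, adjusted p = 0.00565) and stood at 0.66 (SE 0.24, adjusted p = 0.982) in iILC1, with an interaction of −0.76 (SE 0.35, adjusted p = 0.711). CD11b is used by the iNK gate only, whereas IL-7Ra is used by both gates. Whether gating had a part in the levels of Itgam and Il7r was not tested.

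Members of the Ly49 receptor family had negative interaction estimates in all 11 genes tested, with a median of −0.43, and none was called. Over all genes tested the estimate was positive in 48.3%. With RLE scaling or DESeq2, 1 of the 11 was positive. In iILC1 2 of the 11 fell, against 0.0259% of all genes tested, and in iNK none of the 11 was called. Klra6, which encodes Ly49F, stood at 19.3, 15.5 and 36.4 CPM in control iILC1 and at 5.69, 4.90, 2.86 and 6.74 CPM in cKO iILC1, with 13.8 to 19.2 CPM in control iNK and 5.96 to 11.3 CPM in cKO iNK. Its log2 fold change was −2.23 (SE 0.33, adjusted p = 0.00104) in iILC1 and −1.03 (SE 0.32, adjusted p = 0.227) in iNK, an interaction of −1.20 (SE 0.46, adjusted p = 0.709). Without control iILC1 replicate 3 the effect on Klra6 in iILC1 was not called (−1.76, adjusted p = 0.13). Klra genes are near-identical copies, and how the authors' counting treated reads that fit several of them is not given in the sources used here.

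Mitosis genes were lower in cKO in both cell types by estimate, with 2 of 24 called in iNK, against 0.259% of all genes tested. All 24 mitosis genes had lower estimates in both cell types, against 18.1% of all genes tested, with medians of −0.74 in iNK and −0.40 in iILC1. With the level of background reads as a covariate, 20 of the 24 were lower in iILC1. None was called in iILC1 or for the interaction. The interaction estimate was positive in 20 of 24 with a median of 0.35, which was 0.63 (23 of 24) with the covariate, 0.72 (24 of 24) without the 2 libraries of least background and 0.21 (17 of 24) with upper-quartile scaling. Mki67, a marker of dividing cells, stood at 292, 323 and 354 CPM in control iNK and at 165, 130, 162 and 99.9 CPM in cKO iNK, with 38.6, 75.9 and 110 CPM in control iILC1 and 29.7, 63.1, 43.0 and 58.7 CPM in cKO iILC1. The iILC1 genotypes overlapped, and the interaction was 0.58 (SE 0.39, adjusted p = 0.727). Of 24 DNA replication genes, 7 fell in iNK, against 0.259% of all genes tested, and none was called in iILC1. Their medians were −0.83 and −0.16, and 16 had lower estimates in both cell types, against 18.1% of all genes tested. Their interaction estimate was positive in 23 of 24, with a median of 0.64, and none was called. Mcm2, a subunit of the replicative helicase, fell in iNK (−1.05, SE 0.22, adjusted p = 0.0222) and had an interaction of 0.86 (SE 0.32, adjusted p = 0.709).

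Small positive interactions of highly expressed genes were general, so list medians have to be read against expression. Of the 2392 genes with a mean over 100 CPM, 93.8% had a positive interaction estimate, with a median of 0.36, while the share was 31.4% of genes between 1 and 10 CPM and 48.3% of all genes. Summed olfactory and vomeronasal receptor reads, which lymphocytes are not known to make, overlapped between genotypes in both cell types. They were 1475 to 2634 CPM in control iNK and 1827 to 2764 CPM in cKO iNK, with medians of 1701 and 2199 CPM. In iILC1 they were 2291 to 3229 CPM in control and 1689 to 3131 CPM in cKO, with medians of 3079 and 2699 CPM. With that summed level as a covariate, the share above 100 CPM was 55.6% and the median 0.04. Such receptors are themselves genes of low level, so this covariate may absorb a trend with expression. The cause of the trend was not tested. The median of the STAT5 response list became 0.44 and that of DNA replication 0.62, whereas the cytotoxic granule median went from 0.34 to 0.02. Oxidative phosphorylation and MHC class I genes, with positive estimates in all 20 and all 18 members and no call, had medians of 0.53 and 0.73, which became 0.27 and 0.39. The medians of B cell markers and Ly49 receptors were −1.62 and −0.66 with the covariate.

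**Figure D5:**
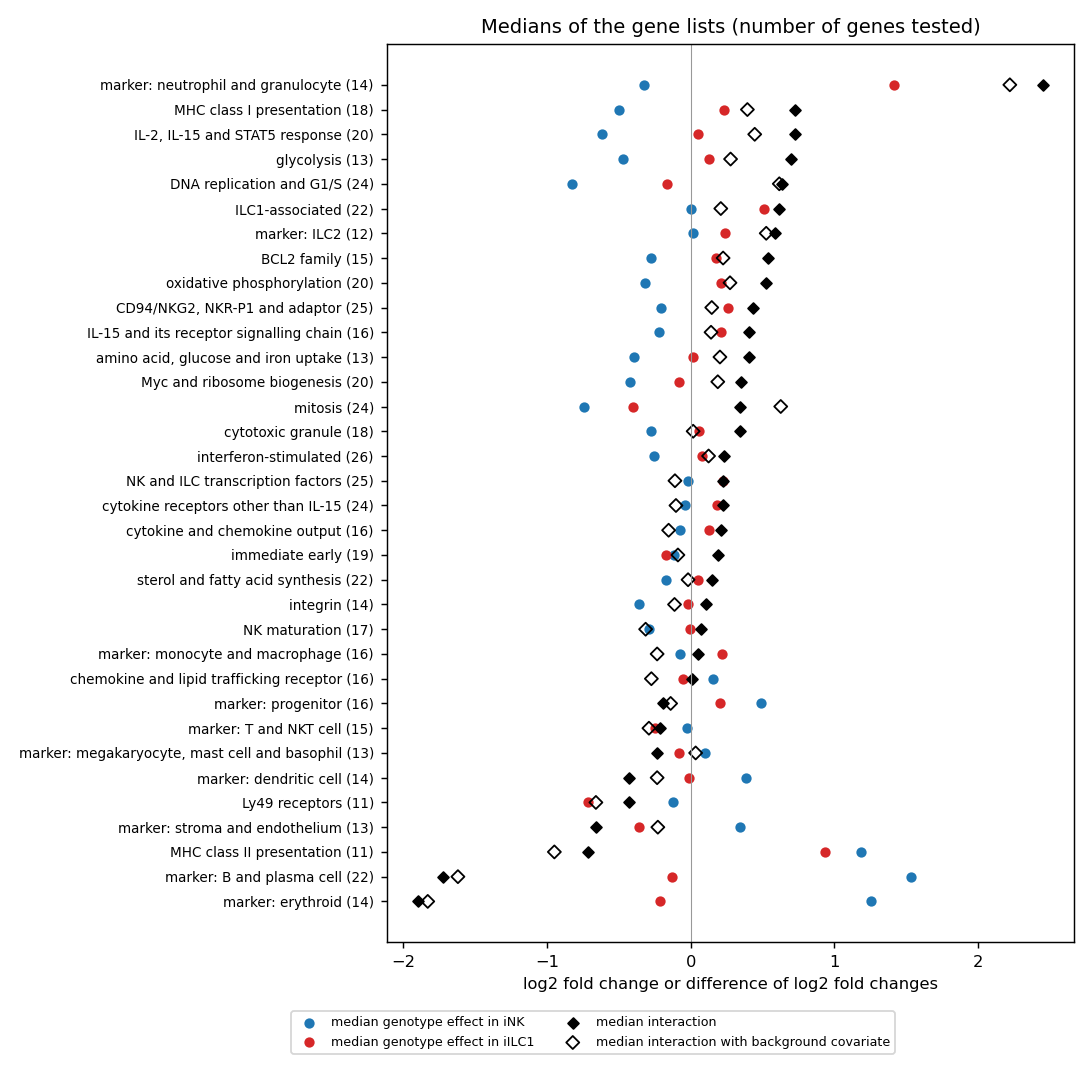
Median log2 fold change of cKO over control in iNK (blue) and iILC1 (red) for each of 34 gene lists, with the median interaction without (filled) and with (open) the background covariate; lists are ordered by the median interaction. B cell markers lie at −1.72 and MHC class II genes at −0.71, while lists of highly expressed genes lie above 0 and mostly move towards it with the covariate.

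Markers of other bone marrow cells gave no further call for the interaction. Neutrophil markers had the largest median among the lists, 2.45, and varied widely between libraries of some groups. Their summed level lay apart by genotype in iILC1 and overlapped in iNK. Ngp, a granule protein of neutrophils, stood at 94.5, 93.5 and 3.04 CPM in control iNK and at 118 CPM in 1 cKO iILC1 library against 3.31 to 5.85 CPM in the other 3. Erythroid markers had the lowest median, −1.90, and Hbb-bs, a beta globin, stood at 1.28 to 15.9 CPM in control iNK and at 31.1 to 263 CPM in cKO iNK, with 2.54 to 100 CPM in cKO iILC1. Summed neutrophil markers were 114 to 369 and 36.9 to 504 CPM in control and cKO iNK and 52.6 to 69.2 and 78.4 to 372 CPM in control and cKO iILC1, and summed erythroid markers 372 to 434, 299 to 914, 264 to 450 and 265 to 528 CPM in the same order. Summed progenitor markers lay apart by genotype in both cell types, at 203 to 317 and 347 to 449 CPM in control and cKO iNK and 268 to 324 and 366 to 444 CPM in control and cKO iILC1. Summed ILC2 markers lay apart in iILC1, at 354 to 488 and 602 to 970 CPM, and overlapped in iNK, at 215 to 300 and 235 to 301 CPM. Summed markers of stroma and endothelium lay apart in iNK, at 204 to 245 and 262 to 314 CPM, and overlapped in iILC1, at 297 to 327 and 325 to 364 CPM. Sums of T and NKT cell, monocyte, and megakaryocyte and mast cell markers overlapped between genotypes in both cell types. No member of these lists was at 0 in all libraries, and their part in the results above was not tested. In the T and NKT cell list, Trac, the constant region of the T cell receptor alpha chain, fell in iILC1 (−1.46, SE 0.27, adjusted p = 0.0178) with an interaction of −1.58 (SE 0.39, adjusted p = 0.21); it was chosen after its values were seen.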

How the data were processed

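Bulk RNA-seq libraries of 2000 sorted cells were made with SMART-Seq v4 and Nextera XT, which do not mark strand, per the labels' protocols. The deposited table held raw counts per gene, made by the authors with Trimmomatic 0.33, HISAT2 2.1.0 and featureCounts of Subread 1.6.5 on mm10, per the submitters' processing notes. The annotation release, strand setting and handling of reads with several matches are not given in the sources used here. The table's gene length column, another deposited value, was not used to test. Columns were matched to samples by title, and 45143 of 46078 identifiers (97.97%) to a symbol.

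Genes were kept by filterByExpr (minimum count 10, minimum total 15), scaled by TMM and tested with edgeR 4.0.16 (R 4.3.3): 1 robust quasi-likelihood fit with 4 group means, 10 residual degrees of freedom, F tests, two-sided, Benjamini-Hochberg adjustment over 26990 genes, threshold 0.05. Standard errors were derived from F. Replicate pairs of a group all differed beyond sampling noise (chi-square of 4.97 to 27.2 per degree of freedom). Total counts per library were 6238016 to 8013984 in control iNK, 6254844 to 12572326 in cKO iNK, 3512796 to 4933284 in control iILC1 and 5478641 to 10308693 in cKO iILC1. The interaction test was checked on simulated counts, with changed genes drawn from those with a mean of at least 10 CPM. It recovered 13% of 100 genes changed 2-fold and 91% of 100 changed 4-fold, with 6 false calls. An uncalled interaction therefore does not show that a 2-fold difference was absent.

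Alternatives used RLE and upper-quartile scaling, other filters, DESeq2 1.42.0, limma 3.58.1 (voom), a covariate of 1465 olfactory and vomeronasal genes, blocks, and omitted libraries or genes. The fit without robust estimation, and lists and expression classes under other settings, were added after seeing the data.

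The text names all genes called for the interaction, except predicted genes, antigen receptor segments and 1 gene not reported here, or the next by p up to 20. It also names genes called in both cell types, those of smallest p in the mean effect with no overlap of libraries in either cell type, members of 34 gene lists and fixed IL-15 and NK genes, some left out for length. The members and lists were chosen with earlier results of these data known.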

Additional observations from a re-analysis of the deposited data

Results flagged for a closer look

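The genotype effect differed between the 2 cell types, by the interaction test over all genes, in 21 genes, of which 20 are given here. With a more negative effect in iILC1 than in iNK, the interaction (log2) was −5.02 for Ly6d, −3.94 for Fcmr, −3.55 for Spib, −3.43 for Scd1 and −3.17 for Fcer2a. It was −2.76 for Siglecg, −2.47 for Irf4, −2.46 for Id3, −2.30 for Cd79b, −2.18 for Cd74 and −1.97 for H2-Aa. It was −1.80 for Nrp2, −1.75 for H2-Ab1 and −1.64 for Slc37a2. With a more positive effect in iILC1 it was 2.2 for Psd2, 2.2 for Adgrg5, 1.90 for Tmem154, 1.71 for Gm49339, 1.71 for Trdv4 and 1.6 for Clnk.

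In 4 of 80 groups of 4 cKO libraries checked over the named genes, 1 library lay far from the other 3, and chance flags about 1 group in 20. Tmem154 stood at 27.4 CPM and Cish at 7.15 CPM in cKO iNK replicate 4, the latter within a range of 6.73 to 7.15 CPM. Gzma stood at 87.1 CPM and Sdc4 at 95.4 CPM in cKO iILC1 replicate 1, which had the least background of its group.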

How the results depend on the processing

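The interaction called 21 genes, against 37 with DESeq2, 34 with the background covariate, 36 with the replicate block, 35 with the replicate block within genotype and 7 without marker, MHC class II, ribosomal and mitochondrial genes, a setting that removes 8 of the called genes from the test. Positive interactions made up 6 of 21, against 10 of 25 with upper-quartile scaling, 18 of 37 with DESeq2, 12 of 30 with voom and 12 of 30 with no filter on low counts. In iNK the count was 110, against 294 with DESeq2, 385 with the background covariate, 214 with a filter at 5 CPM, 235 with voom and 189 with the replicate block. In iILC1 it was 13, against 46, 57, 37, 55 and 38 in that order, 30 with upper-quartile scaling, 30 with no filter, 21 without the 2 libraries of least background and 8 without marker genes. For the mean effect it was 114, against 209, 441, 206, 248 and 182, and 191 with upper-quartile scaling; RLE scaling gave 117, of which 39 rose. Genes called in both cell types numbered 7, against 21, 23, 16, 15 and 16, 13 with upper-quartile scaling, 12 with no filter and 3 without marker genes. The cause of these shifts was not tested.

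Leaving out 1 library gave 9 to 31 genes for the interaction, 62 to 229 in iNK, 4 to 28 in iILC1, 50 to 181 for the mean effect and 2 to 11 in both. Without control iILC1 replicate 3 the interaction called 9, without control iILC1 replicate 2 it called 11, and without cKO iNK replicates 1 or 3 it called 12 or 13. Without the 2 libraries of least background it called 18, of which 16 were among the 21. Ly6d, Adgrg5, Scd1, Cd74 and Spib were called in every alternative that tested them. Uncalled interactions changed sign for Sdc4 (−0.36 with the background covariate, −0.61 without the 2 libraries of least background) and Jaml (−0.053 with upper-quartile scaling). With 1 library left out they ranged from −0.34 to 0.54 for Sdc4, −0.081 to 0.27 for Jaml, −0.32 to 0.12 for Adgrl4 and −0.54 to 0.043 for Apol7b. Upper-quartile scaling moved the median interaction of all genes from −0.03 to −0.20. The labels do not say whether replicate numbers pair the samples, and correlations did not settle it. Deviations of same-numbered samples of 1 genotype correlated between −0.17 and 0.48, and 5 of 14 libraries correlated best with their own number. Same-numbered samples of different genotype correlated between −0.14 and 0.60 within a cell type and between −0.15 and 0.60 across cell types. Control iILC1 had the fewest counts, and how far depth set the precision was not tested.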
